A study of Danio rerio with 6 samples.

Results

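The expression of 10 gene symbols of neural progenitor and proneural biology was followed in whole zebrafish (Danio rerio) embryos: sox2, sox3, her4.1, her4.2, her15.1, ascl1a, ascl1b, neurog1, neurod4 and fabp7a. They were chosen by name, with earlier results of these data known. Every Ensembl gene carrying one of the 10 names in the deposited FPKM table was kept, which gave 12 genes out of 32520. The symbols her4.2 and ascl1b each stood on 2 gene IDs, which are given separately. Embryos were wild type (WT) or bcas2 knockout (bcas2-KO) and were collected at 3 days post fertilization. Each library was made from total RNA of 10 whole embryos of the same genotype, and there were 3 libraries per genotype. The gene bcas2 codes for a spliceosome component, and the labels name neither the allele nor the strain nor the clutches. P-values therefore measure the spread between these pools, and a difference between pools of whole embryos cannot separate fewer cells of a type from less RNA per cell.

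Neural progenitors of the vertebrate brain and spinal cord are kept from becoming neurons by SoxB transcription factors and by the Notch pathway. Notch signalling switches on Her repressors (Hes in mammals), which block proneural bHLH factors such as Neurog1 and Neurod4. Where the proneural factors prevail, a cell raises Delta ligands, leaves the cycle and becomes a neuron, while its neighbours remain progenitors. Many progenitors of the later brain are radial glia, which carry the brain-type fatty acid binding protein encoded by fabp7a.

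Gene counts summed to 35.6 to 49.5 M in the WT libraries and to 32.8 to 40.5 M in the knockout libraries. The targeted gene bcas2 had 27.4 to 29.4 CPM (counts scaled by library size, the unit of every level unless FPKM is named) in WT and 3.09 to 4.49 CPM in bcas2-KO. Across the series, 4382 of 22347 tested genes were called changed (Benjamini-Hochberg adjusted p under 0.05, quasi-likelihood test of edgeR), which is 19.6%, with 10.6% higher and 9.01% lower in bcas2-KO. With upper-quartile scaling the split was 1746 higher and 2625 lower, against 2369 and 2013 with the TMM scaling used here. In 39.4% of tested genes the libraries of the genotypes did not overlap. The libraries differed in eye transcripts within a genotype: 12 lens genes summed to 317 CPM in WT library 1, to 240 CPM in bcas2-KO library 3, and to between 1.58 and 4.60 CPM elsewhere. The 4 libraries with a lens gene median under 1 CPM are called libraries without eye transcripts below. That name rests on lens genes only. In these libraries 15 photoreceptor genes summed to between 15.6 and 40.1 CPM, against 277 and 168 CPM in WT library 1 and bcas2-KO library 3. The pan-neuronal marker elavl3 was present in every library at 134 to 171 CPM, and the radial glia marker gfap at 357 to 572 CPM.

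Of the 12 genes, 2 were lower in bcas2-KO, 0 were higher and 10 did not pass, so the share called (2 of 12) was read against 19.6% over all tested genes. All 12 passed the filter on low counts. The genotypes did not overlap in 2 of the 12, the same 2 that were called, against 39.4% of all tested genes. The 2 were fabp7a and the gene listed as ascl1b under ENSDARG00000009702. The SoxB genes, the Her genes, ascl1a, neurog1, neurod4 and the gene listed as ascl1b under ENSDARG00000101628 did not pass. The median log2 fold change was -0.058 over the 12 genes and -0.018 over all tested genes.

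**Figure D1:**
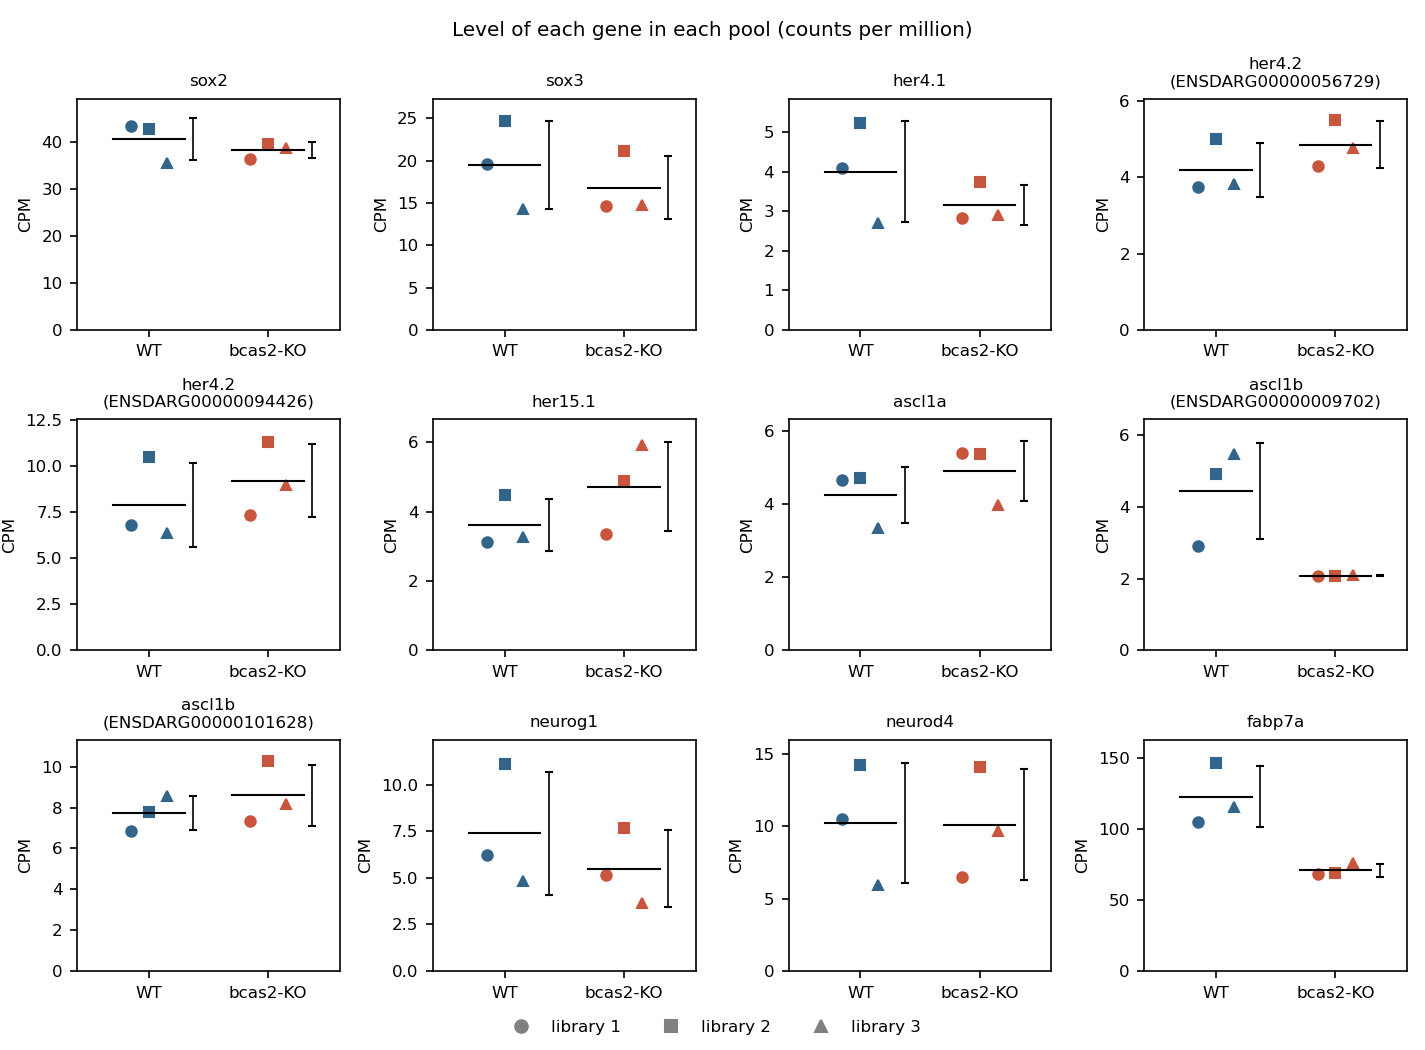
Each panel shows 1 gene, with CPM on a linear axis from 0 and 1 point per pool of 10 embryos (circle, square and triangle for libraries 1, 2 and 3; blue WT, red bcas2-KO). Horizontal bars are means and vertical bars are ± SD over 3 pools; the points of the genotypes are separate for fabp7a (105 to 147 CPM against 68.1 to 76.2 CPM) and for ENSDARG00000009702, and overlap in the other panels.

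Per unit of gene length, fabp7a was the most abundant of the 12 genes, at 270 to 384 FPKM in WT (length-scaled fragment counts, the authors' values). It was followed by sox2 at 38.2 to 46.2 FPKM and sox3 at 18.1 to 31.3 FPKM, and these ranges did not overlap in WT. Then came ascl1b (ENSDARG00000101628), neurod4, neurog1, her4.1 and her4.2 (ENSDARG00000094426), whose WT medians ran from 13.7 down to 6.74 FPKM and whose ranges overlapped between neighbours in that order. The lowest were ascl1a (5.17), her4.2 (ENSDARG00000056729, 4.95), her15.1 (3.30) and ascl1b (ENSDARG00000009702, 2.35 FPKM). Of these, ascl1a overlapped with ENSDARG00000056729 and with her15.1 in WT, while her15.1 lay below ENSDARG00000056729 and above ENSDARG00000009702.

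Transcripts of fabp7a fell in bcas2-KO. Its level was 105, 147 and 116 CPM in WT libraries 1 to 3 and 68.1, 68.8 and 76.2 CPM in the knockout libraries, in the same order. Every bcas2-KO pool lay below every WT pool, and the bcas2-KO pools were close to each other. The means were 123 ± 21.6 and 71.0 ± 4.45 CPM (SD, n = 3 pools each), a 1.73-fold decrease (log2 fold change -0.79, SE 0.12, 95% interval -1.06 to -0.52, adjusted p = 0.00271, edgeR). In the 4 libraries without eye transcripts the log2 fold change was -0.94 (adjusted p = 0.00385), and no library left out alone ended the call (adjusted p at most 0.0224).

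Because RNA of the whole embryo was measured, fabp7a was also set against other neural transcripts of the same library, in ratios chosen after the values were seen. For each count of elavl3 there were 0.786, 0.860 and 0.835 counts of fabp7a in WT and 0.471, 0.460 and 0.526 in bcas2-KO. For each count of sox2 there were 2.43, 3.44 and 3.27 in WT and 1.87, 1.74 and 1.98 in bcas2-KO. Both ratios were lower in every bcas2-KO pool than in any WT pool (exact permutation test over libraries, two-sided, p = 0.1 for each, the smallest that 3 against 3 allows, and 0.125 adjusted over 5 ratios). The numerator is the called gene and neither elavl3 nor sox2 passed, so these ratios largely restate that call. The ratio to gfap overlapped between the genotypes, at 0.270 ± 0.0590 in WT and 0.192 ± 0.0195 in bcas2-KO (exact permutation p = 0.2, n = 3 pools each). The gfap level itself was 467 ± 104 and 371 ± 17.3 CPM and did not pass (log2 fold change -0.33, adjusted p = 0.141, edgeR).

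Other radial glia genes were read beside fabp7a. In a list of 16 such genes, 15 were tested, 5 fell, 0 rose and 10 did not pass, where 9.01% of all tested genes fell and 10.6% rose, with a median log2 fold change of -0.31 against -0.018 over all tested genes. DESeq2 called 6 of the list and limma 3. The list was chosen with earlier results of these data known, so its count and median are a description without a test. The embryo was measured whole, so the cells in which these genes fell were not identified. The glutamine synthetase gene glula fell from 86.2 ± 10.7 to 59.9 ± 6.31 CPM (log2 fold change -0.52, adjusted p = 0.0118, edgeR), and the intermediate filament gene vim from 111 ± 26.9 to 70.5 ± 8.58 CPM (-0.66, adjusted p = 0.0329). The glutamate transporter gene slc1a3b (-0.31, adjusted p = 0.0372) and the calcium-binding protein gene s100b (-0.62, adjusted p = 0.0389) were also called lower. The prostaglandin D synthase gene ptgdsb.1, the most abundant of the list at 768 ± 94.0 and 716 ± 113 CPM, did not pass (adjusted p = 0.624), nor did fabp7b, the duplicate of fabp7a. The summed level of the 16 genes was 1650 to 2090 CPM in the WT pools and 1480 to 1790 CPM in the knockout pools, so it overlapped between genotypes, and its part in the fall of fabp7a was not tested. Most of that sum came from ptgdsb.1 and from gfap (means of 467 and 371 CPM), and neither passed. The overlap therefore says little about the other genes of the list. Leaving out WT library 2 ended the glula call (adjusted p = 0.0613), and the vim call ended without WT library 2 and without knockout library 1 or 2, and those of slc1a3b and s100b ended without 4 and 5 of the 6 libraries in turn, with adjusted p up to 0.111, 0.140 and 0.104. In the 4 libraries without eye transcripts, slc1a3b and s100b had log2 fold changes of -0.32 and -0.60, near those in all 6, but were not called (adjusted p = 0.0731 and 0.141). Outside the list and in all 6 libraries, the skin marker cyt1 fell too (log2 fold change -0.46, adjusted p = 0.0247, edgeR). The muscle marker actc1b did not pass (-0.11, adjusted p = 0.574).

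The symbol ascl1b, for a proneural bHLH factor, covered 2 genes with different values. For ENSDARG00000009702 the counts were 149, 209 and 183 in WT and 85, 84 and 68 in bcas2-KO, or 2.91, 4.90 and 5.47 against 2.06, 2.08 and 2.09 CPM. The bcas2-KO pools were all lower, and the WT pools were spread out, with WT library 1 nearest to them. The mean fell from 4.43 ± 1.34 to 2.08 ± 0.0166 CPM, a 2.12-fold decrease (log2 fold change -1.09, SE 0.23, 95% interval -1.60 to -0.57, adjusted p = 0.0118, edgeR). At 68 to 85 counts per bcas2-KO pool, counting alone gives more spread than the SD of 0.0166 CPM, which therefore understates the error. The call ended when WT library 2 was left out (adjusted p = 0.0573) and when bcas2-KO library 1 was (0.0548), but it held in the 4 libraries without eye transcripts (log2 fold change -1.31, adjusted p = 0.00587).

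For ENSDARG00000101628 the level was 6.85, 7.80 and 8.55 CPM in the WT pools and 7.34, 10.3 and 8.18 CPM in the knockout pools. The genotypes overlapped, and the estimate was on the higher side (log2 fold change 0.16, 95% interval -0.18 to 0.49, adjusted p = 0.497, edgeR). That interval excludes a decrease of the size seen under the other ID. In a table of Ensembl symbols, ENSDARG00000101628 is ascl1b, while ENSDARG00000009702 is si:ch211-210p4.6. In a RefSeq gene table of another assembly (GRCz12tu, used here for gene order only), si:ch211-210p4.6 is the protein-coding gene next to ascl1b. The fall printed under the symbol ascl1b therefore belongs to a gene that this symbol table names otherwise. The count ratio of ENSDARG00000009702 to ENSDARG00000101628 was 0.564 ± 0.120 in WT and 0.246 ± 0.0399 in bcas2-KO, without overlap (exact permutation p = 0.1, 0.125 adjusted over 5 ratios, n = 3 pools each). This ratio was picked after the values were seen, with the called gene as its numerator, so it restates that call.

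**Figure D2:**
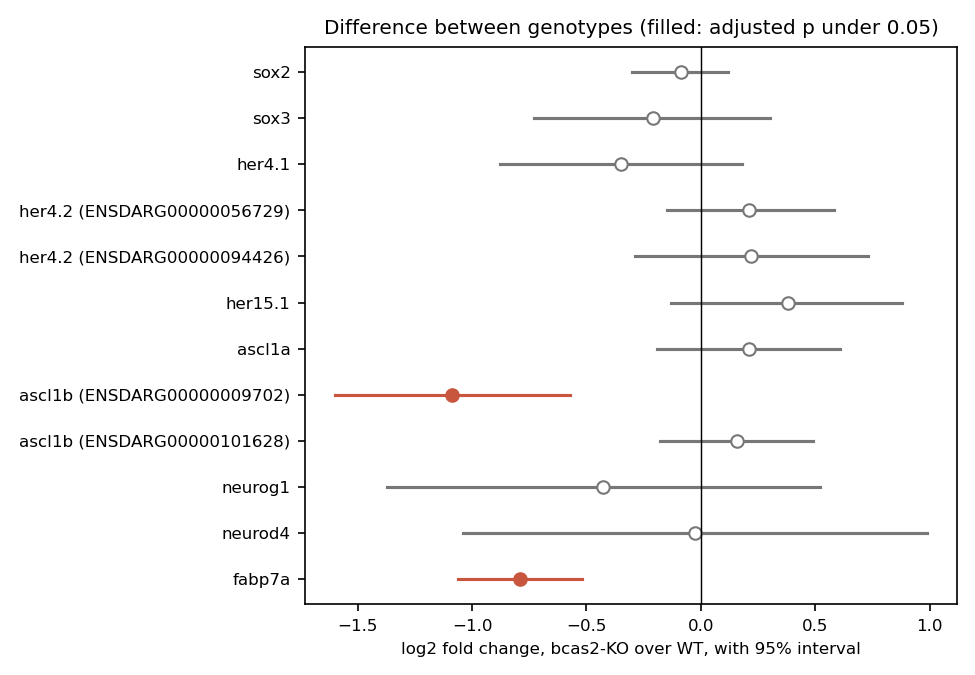
Points are log2 fold changes of bcas2-KO over WT from the edgeR fit and lines are 95% intervals; filled red points have an adjusted p under 0.05. Of the 2 genes named ascl1b, 1 lies at -1.09 and the other at 0.16, and the intervals of neurog1 and neurod4 are the widest.

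The SoxB genes, which mark undifferentiated neural cells, did not pass. The level of sox2, a factor that maintains progenitors, was 43.4, 42.8 and 35.5 CPM in the WT pools and 36.4, 39.6 and 38.6 CPM in the knockout pools. The genotypes overlapped and the pools lay close together, so the interval was narrow (log2 fold change -0.089, 95% interval -0.30 to 0.12, adjusted p = 0.542, edgeR). Its lower end was 0.812 times the WT level, a bound that holds for TMM scaling of all 6 libraries only. The sox2 estimate was -0.15 with upper-quartile scaling and -0.18 without WT library 3, and was not called in either (edgeR adjusted p = 0.288 and 0.191). Its relative sox3 had 19.6, 24.7 and 14.3 CPM in the WT pools and 14.7, 21.1 and 14.8 CPM in the knockout pools, with library 2 highest in both genotypes (-0.21, 95% interval -0.73 to 0.30, adjusted p = 0.538). EdgeR called 19.6% of all 22347 tested genes, and 7694 of them had an unadjusted p under 0.05. Of 7 other SoxB genes, 0 were called by edgeR, DESeq2 or limma and 1 had an unadjusted p under 0.05 in edgeR, with a median log2 fold change of -0.11. The most abundant was sox19a, at 23.5 ± 5.02 and 22.8 ± 4.04 CPM.

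The Her genes followed here code for Notch-driven repressors of the Hes5 type, and they did not pass either. The level of her4.1 was 4.09, 5.22 and 2.69 CPM in the WT pools and 2.83, 3.73 and 2.89 CPM in the knockout pools (log2 fold change -0.35, 95% interval -0.88 to 0.18, adjusted p = 0.334, edgeR). For her4.2 (ENSDARG00000094426) it was 6.79, 10.5 and 6.34 CPM in the WT pools and 7.34, 11.3 and 8.95 CPM in the knockout pools (0.22, 95% interval -0.29 to 0.73, adjusted p = 0.523). Library 2 was the highest of its genotype in both genes, and the genotypes overlapped. The second gene listed as her4.2, ENSDARG00000056729, is her4.5 in the table of Ensembl symbols and had 3.74, 5.01 and 3.83 CPM in the WT pools and 4.31, 5.51 and 4.77 CPM in the knockout pools (0.21, adjusted p = 0.393). For her15.1 the values were 3.13, 4.47 and 3.26 CPM in the WT pools and 3.37, 4.87 and 5.93 CPM in the knockout pools (0.38, 95% interval -0.13 to 0.88, adjusted p = 0.268), again overlapping.

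The her4 genes form a row of similar copies, and in the RefSeq gene order her4.1 lies inside the span of her4.2. The labels do not state the treatment of reads shared by copies or the use of strand, so values of single copies are uncertain. Summed over the 5 her4 copies, the level was 26.0 ± 6.95 CPM in the WT pools and 27.8 ± 5.77 CPM in the knockout pools (log2 fold change 0.094, 95% interval -0.40 to 0.59, adjusted p = 0.793, edgeR). Within a library, her4.1 had 0.602, 0.499 and 0.425 counts per count of her4.2 (ENSDARG00000094426) in WT and 0.386, 0.331 and 0.323 in bcas2-KO. This ratio, picked after the values were seen, did not overlap between the genotypes (exact permutation p = 0.1, adjusted 0.125). Summed with its neighbour her15.2, her15.1 had 5.54 ± 1.16 and 7.33 ± 1.61 CPM (0.40, adjusted p = 0.185, edgeR).

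Among the proneural genes, ascl1a had 4.66, 4.71 and 3.35 CPM in the WT pools and 5.40, 5.37 and 3.97 CPM in the knockout pools. The genotypes overlapped, with library 3 lowest in both (log2 fold change 0.21, 95% interval -0.19 to 0.61, adjusted p = 0.448, edgeR). The level of neurog1, which starts neuron formation in sensory ganglia and spinal cord, was 6.22, 11.1 and 4.84 CPM in the WT pools and 5.16, 7.69 and 3.63 CPM in the knockout pools. Pools of 1 genotype differed by up to 2.29-fold, and the interval of the difference was wide (-0.43, 95% interval -1.37 to 0.52, adjusted p = 0.495). Leaving out WT library 2 moved the neurog1 value to -0.01, leaving out the knockout library 2 moved it to -0.75, and it was not called in either case (edgeR adjusted p = 0.987 and 0.258). The level of neurod4, a bHLH gene of newly forming neurons, was 10.5, 14.2 and 5.92 CPM in the WT pools and 6.46, 14.1 and 9.69 CPM in the knockout pools. Its interval reached from 0.486 to 1.98 times the WT level (log2 fold change -0.027, adjusted p = 0.972, edgeR), so changes within that range are not excluded.

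Much of the variation in these genes was between pools of the same genotype. Library 2 was the highest WT library for 9 of the 12 genes, against 28.2% of all tested genes, and the highest bcas2-KO library for 8 of 12, against 34.1%. It was highest in both genotypes for 6 of 12 (sox3, her4.1, both genes named her4.2, neurog1 and neurod4), against 12.7% of all tested genes. WT library 3 was the lowest WT library for 7 of the 12, against 36.2% of all tested genes. For sox3, her4.1 and neurod4 it lay further from the WT mean than WT library 2 did. Its deviations in log2(CPM + 0.5) were -0.404, -0.456 and -0.659, against 0.363, 0.387 and 0.536. For neurog1 and both genes named her4.2, WT library 2 lay further. The genes share libraries and sequence families, so these shares are a description without a test. The highest pool of a genotype had a median of 1.54 times the lowest in WT, against 1.24 times over all tested genes, and 1.38 times in bcas2-KO. WT library 2 was the second deepest of its genotype and bcas2-KO library 2 the deepest, and neither was a library with eye transcripts. The part of depth in this order was not tested.

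**Figure D3:**
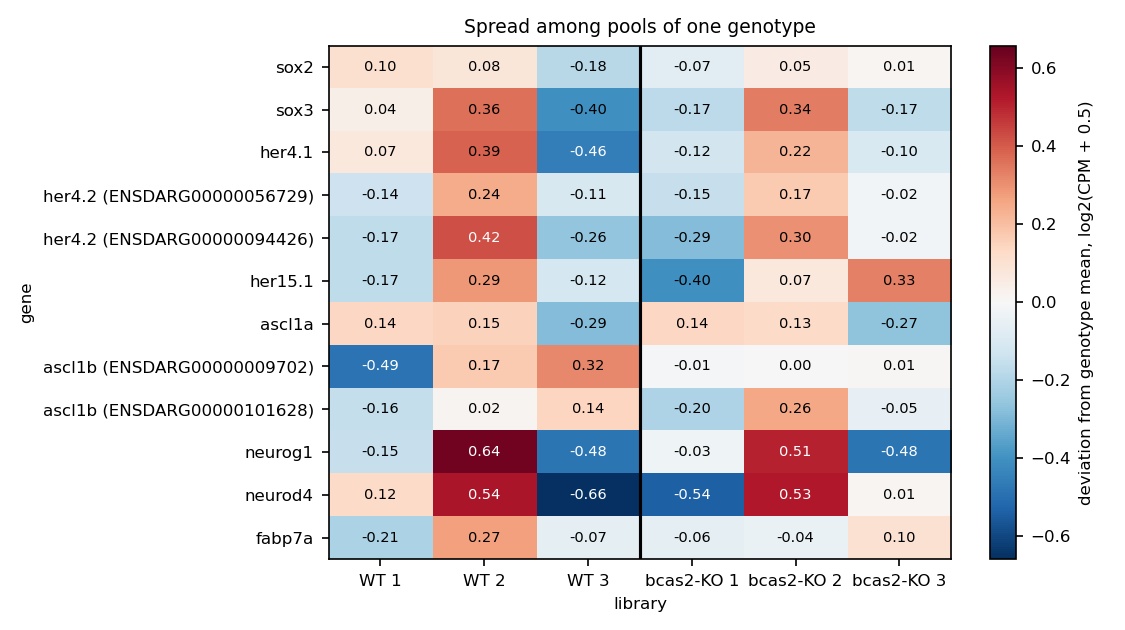
Each cell gives a library's deviation from the mean of its own genotype in log2(CPM + 0.5), red above and blue below, for the 12 genes in rows. The columns WT 2 and bcas2-KO 2 are red for sox3, the her4 genes, neurog1 and neurod4. The bcas2-KO values of fabp7a and ENSDARG00000009702 lie close together, the latter at only 68 to 85 counts per pool.

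The same libraries were high for other genes of the circuit. Among 15 other Her and Hey genes, library 2 was the highest in both genotypes for 9, and among 11 Delta ligands and Notch regulators for 5. It also held for 3 of 7 other SoxB genes (42.9%) and 4 of 16 other bHLH genes (25%). The counts were 9 of 28 regional factors (32.1%) and 8 of 24 early neuron genes (33.3%). Among 15 radial glia genes this held for 2 (13.3%), near the 12.7% of all tested genes, and among 26 cell division genes for 5 (19.2%). In bcas2-KO alone, library 2 was the highest for 17 of the 26 cell division genes (65.4%), near the 66.7% of the 12 genes. WT library 3 was the lowest WT library for 19 of the 26 cell division genes and 15 of the 16 other bHLH genes. It was the lowest for 5 of the 15 radial glia genes. Without both libraries numbered 2, a comparison added after the data were seen, fabp7a was still called (log2 fold change -0.62, adjusted p = 0.0340, edgeR), ENSDARG00000009702 was not (-1.01, adjusted p = 0.121), and the calls over all genes fell to 1030.

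Other genes of the circuit were taken from lists, which were chosen with earlier results of these data known. Over all tested genes, 9.01% fell and 10.6% rose. Of 15 tested Her and Hey genes, 1 fell, 1 rose and 13 did not pass (median log2 fold change 0.088). The hairy-related gene her8.2 fell 3.85-fold, from 6.65, 14.1 and 13.4 CPM in the WT pools to a mean of 2.93 ± 0.469 CPM in the knockouts (-1.94 in log2, SE 0.29, adjusted p = 0.00484, edgeR), and stayed called without any 1 library (adjusted p at most 0.0296). The Hes1-type gene her6 rose from 16.6 ± 1.26 to 22.4 ± 1.20 CPM (0.43, adjusted p = 0.0126), a call lost without WT library 2 (0.0597). The Notch target gene hey1 was the most abundant, at 27.2 ± 0.967 and 28.8 ± 2.15 CPM, and did not pass (adjusted p = 0.541).

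Of 11 Delta ligands and Notch regulators, 3 rose, 0 fell and 8 did not pass, where 10.6% of all tested genes rose, with a median log2 fold change of 0.26. The Notch-modifying glycosyltransferase gene lfng rose from 58.5 ± 5.42 to 84.8 ± 11.3 CPM (log2 fold change 0.54, adjusted p = 0.0101, edgeR), and numb, for an inhibitor of Notch in dividing cells, from 37.2 ± 5.60 to 52.5 ± 5.20 CPM (0.50, adjusted p = 0.0186). The ligand gene dll4, best known from vessels, rose from 13.5 ± 0.843 to 17.1 ± 1.18 CPM (0.35, adjusted p = 0.0329). The ubiquitin ligase gene mib1, the most abundant at 71.3 ± 5.45 and 81.3 ± 2.53 CPM, did not pass (adjusted p = 0.124). Other Delta ligand genes did not pass either. The genotypes overlapped for dla (log2 fold change 0.40, adjusted p = 0.452, edgeR), dld (0.53, adjusted p = 0.311) and dlb (-0.14, adjusted p = 0.84). They did not overlap for dlc (0.26, adjusted p = 0.0502). The lfng call was lost without bcas2-KO library 1 (0.0509), that of numb without WT library 2 and without knockout library 1 or 3 (up to 0.0800), and that of dll4 without library 1 or 2 of either genotype (up to 0.117), and numb and dll4 were not called in the 4 libraries without eye transcripts (0.0868 and 0.0598), with log2 fold changes of 0.36 and 0.37 there.

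Of 16 other tested proneural and neuronal bHLH genes, 1 rose, 0 fell and 15 did not pass (median log2 fold change 0.016). Among all tested genes, 10.6% rose and 9.01% fell. The listed gene that rose was tcf3b, for an E protein that pairs with proneural factors and is used in many tissues. Its level was 99.9, 79.1 and 75.4 CPM in the WT pools and 135, 144 and 128 CPM in the knockout pools (log2 fold change 0.68, SE 0.11, adjusted p = 0.00358, edgeR), and it stayed called without any 1 library. Id proteins bind E proteins and keep them from DNA. Of 5 genes for Id proteins, 2 fell and 3 did not pass, where 9.01% of all tested genes fell. The 2 were id2b (from 7.43 ± 0.547 to 5.25 ± 0.336 CPM, adjusted p = 0.0182, edgeR) and id1 (from 32.3 ± 0.613 to 24.4 ± 3.21 CPM, adjusted p = 0.0232), while the most abundant, id2a, did not pass (adjusted p = 0.488). Both calls ended without WT library 2 and without knockout library 1 or 3 (up to 0.0954 and 0.0930), that of id2b also without bcas2-KO library 2, and neither was called in the 4 libraries without eye transcripts (0.0610 and 0.0788), where the log2 fold changes were -0.52 for id2b and -0.41 for id1, against -0.50 and -0.41 in all 6.

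**Figure D4:**
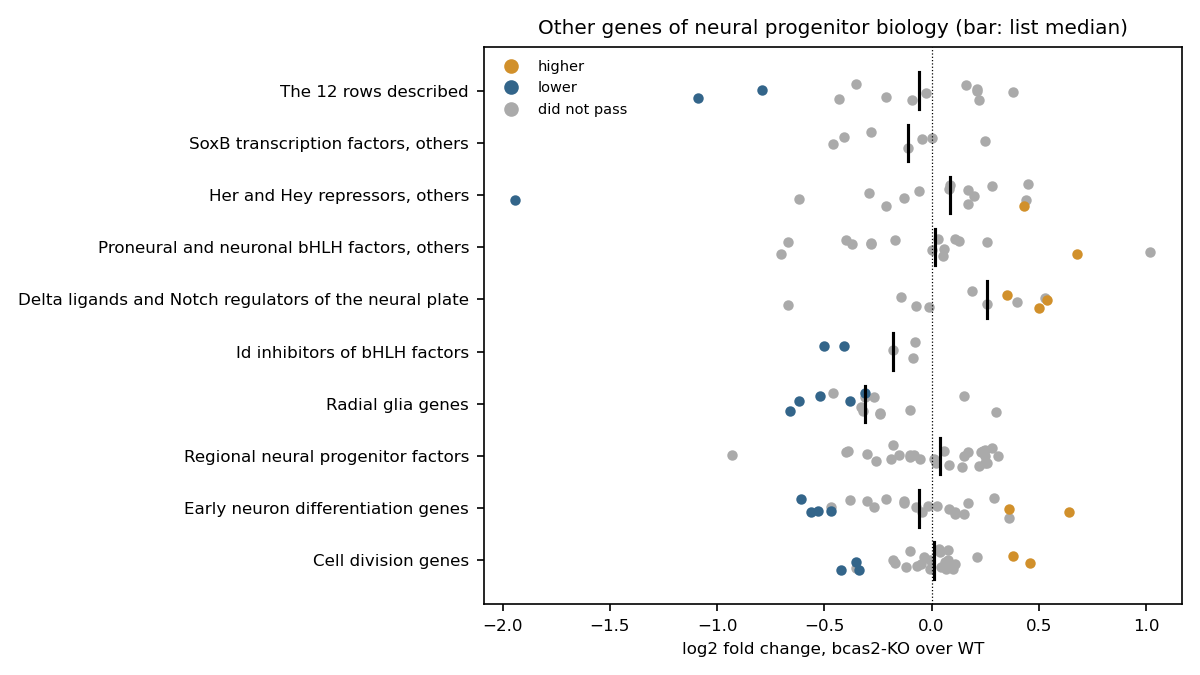
Points are the log2 fold changes (bcas2-KO over WT) of the 12 genes and of 9 lists of related genes, coloured by the edgeR call at an adjusted p of 0.05; black bars are list medians. The radial glia list has its median at -0.31 with 5 genes lower and 0 higher, and the list of Delta ligands and Notch regulators at 0.26 with 3 higher and 0 lower.

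Factors that pattern progenitors by region did not pass: 0 of 28 were called by edgeR, DESeq2 or limma, and the median log2 fold change was 0.038. In edgeR 3 of the 28 had an unadjusted p under 0.05, against 7694 of 22347 tested genes. The most abundant, meis1b, had 211 ± 12.2 and 186 ± 14.7 CPM (adjusted p = 0.161). Over all tested genes, 9.01% fell and 10.6% rose. Among 24 tested genes of early neuron differentiation, 4 fell, 2 rose and 18 did not pass (median -0.058). SoxC genes act in newly formed neurons and in other young tissues. Of these, sox4b fell from 156 ± 5.16 to 109 ± 5.23 CPM (log2 fold change -0.53, adjusted p = 0.00172, edgeR) and sox4a (ENSDARG00000004588) from 141 ± 14.7 to 91.9 ± 6.45 CPM (-0.61, adjusted p = 0.00271). The SoxC gene sox11a also fell (-0.56, adjusted p = 0.0263), while sox11b overlapped between the genotypes and did not pass (-0.47, adjusted p = 0.138). The growth cone gene gap43 fell from 55.8 ± 4.70 to 40.3 ± 1.98 CPM (adjusted p = 0.00560), and isl2a, for a factor of motor and sensory neurons, rose from 22.9 ± 3.62 to 35.8 ± 3.95 CPM (adjusted p = 0.00930). The genes sox4b, sox4a, gap43 and isl2a stayed called without any 1 library. The most abundant of the list, tuba1a, did not pass (adjusted p = 0.175), and elavl3 was 148 ± 20.0 and 146 ± 2.83 CPM (log2 fold change -0.018, adjusted p = 0.917).

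Cell division genes, which progenitors share with every other dividing cell of the embryo, were mostly not called: of 26, 3 fell, 2 rose and 21 did not pass (median log2 fold change 0.013). That count is near the 19.6% called over all tested genes. The replication clamp gene pcna fell from 223 ± 8.78 to 166 ± 2.62 CPM (-0.42, adjusted p = 0.00420, edgeR) and stayed called without any 1 library. The ribonucleotide reductase gene rrm2 (ENSDARG00000078069) fell from 78.5 ± 5.52 to 61.5 ± 0.989 CPM (adjusted p = 0.0131), a call lost without bcas2-KO library 1 (0.0650). The mitotic genes cdc20 (17.3 ± 2.56 to 23.8 ± 1.53 CPM, adjusted p = 0.0243) and ccnb1 (28.3 ± 2.92 to 36.8 ± 2.47 CPM, adjusted p = 0.0258) rose. Their calls ended without library 2 or 3 of either genotype (up to 0.0752 and 0.0777), and that of cdc20 also without bcas2-KO library 1. The helicase gene mcm7 was the most abundant, at 311 ± 13.4 and 321 ± 24.6 CPM, and did not pass (adjusted p = 0.745). In the 4 libraries without eye transcripts, rrm2 and ccnb1 were not called (0.0601 and 0.0673), with log2 fold changes of -0.33 and 0.40 against -0.35 and 0.38 in all 6.

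Other cells that use these genes were checked by their markers. Tested were 6 of 11 retinal progenitor genes, all 9 hair cell and otic genes, 6 of 12 lens genes and 10 of 15 photoreceptor genes. The other genes of these lists did not pass the filter on low counts, so the counts below leave them out. Among all 22347 tested genes, edgeR called 19.6%, and 7694 had an unadjusted p under 0.05 in edgeR. Of the tested genes in these lists, 0 were called by edgeR, DESeq2 or limma and 0 had an unadjusted p under 0.05 in edgeR. The most abundant tested members were lhx2b, s100t, crybb1 and rho, in that order of lists. For the eye genes this cannot exclude a genotype difference, because many varied widely between pools of the same genotype. The edgeR interval of the log2 fold change ran from -7.83 to 7.81 for crybb1 and from -10.16 to 5.77 for rho. It was narrower for cryabb (-1.19 to 0.83) and sagb (-0.1 to 1.52). The genes rho and crybb1 followed the eye libraries: rho had 134 and 30.4 CPM in WT library 1 and bcas2-KO library 3 and at most 1.11 CPM in the others. In a list of 9 pancreas and gut endocrine genes, which also use neurod1 and insm1a, 1 fell, 1 rose and 7 did not pass. That is near the shares over all tested genes, where 9.01% fell and 10.6% rose. The 2 called were sst2, which fell (4.28 ± 1.18 to 1.79 ± 0.393 CPM, adjusted p = 0.00851, edgeR), and pax4, which rose (0.845 ± 0.183 to 1.86 ± 0.202 CPM, adjusted p = 0.00978). Both stayed called without any 1 library, and pax4 was not called in the 4 libraries without eye transcripts (0.0581), with a log2 fold change of 1.01 there against 1.13 in all 6. The most abundant, neurod1, had 31.0 ± 6.73 and 33.4 ± 9.23 CPM (adjusted p = 0.789).

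The genes whose pattern over the 6 libraries was most like that of fabp7a, by Pearson's r of log2(CPM + 0.5) among 13373 genes with a mean of at least 5 CPM, were the serotonin receptor subunit gene htr3a (r = 0.9966), a gene named zgc:162858 in the table of Ensembl symbols (0.9944) and the GPI anchor enzyme gene pigb (0.9915). All 3 fell, htr3a from 6.77 ± 0.746 to 4.52 ± 0.320 CPM, zgc:162858 from 13.2 ± 1.24 to 9.57 ± 0.641 CPM and pigb from 11.4 ± 1.38 to 7.31 ± 0.469 CPM (adjusted p = 0.0151, 0.0166 and 0.00730, edgeR). For ENSDARG00000009702 they were rnf213a (0.9972), gstp2 (0.9960) and b3gnt2l (0.9960), with log2 fold changes of -0.56, -1.62 and -0.43. These values of r rest on 6 libraries that share the genotype split and were picked as the highest of many, so they describe likeness and nothing further.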

How the data were processed

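Transcripts of 6 pools of whole embryos were sequenced as pairs of 150-base reads after TRIzol extraction and NEBNext Ultra library preparation, per the labels. One deposited table holds raw counts per Ensembl gene, and the other deposited table holds FPKM for those genes. Tools named in the submitters' processing notes are DESeq2 1.22.1, StringTie 1.3.3b, featureCounts 1.6.0, STAR 2.6.1a and cutadapt 1.15, with the build GRCz11. Their roles, annotation release and strand setting were not given in the sources used here.

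Genes were filtered with filterByExpr (minimum count 10), counts were scaled by TMM, and genotypes were compared with the quasi-likelihood test of edgeR 4.0.16 (two-sided, robust) in R 4.3.3 over all 22347 genes, after the test was tested on simulated data. A gene with a Benjamini-Hochberg adjusted p under 0.05 is called changed. A floor of 3 counts equals 0.0587 to 0.0922 CPM, which covers counting error only, while the 95% intervals come from the edgeR fit and include the spread between pools. Pairs of libraries within a genotype differed far beyond sampling noise (chi-square per degree of freedom 12.7 to 34.4). Of the 12 gene IDs, 10 carried the same name, or a synonym, in a table of Ensembl symbols.

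Members and lists were chosen with earlier results of these data known. All members are named. Of each list, up to 4 called genes with the smallest p and the most abundant gene are named. The Delta ligand genes dla, dlb, dlc and dld are named as well, as are sox11a, sox11b, sagb and opn1sw1. Alternatives were DESeq2 1.42.0, limma 3.58.1 on log2 FPKM, other scalings and filters, the replicate block, libraries left out, eye transcripts and summed copies.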

Additional observations from a re-analysis of the deposited data

How the results depend on the processing

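The fall of fabp7a kept its direction and its call under all 19 alternatives (log2 fold change -0.94 to -0.62). When 1 library was left out, the number of the 12 genes called lay between 1 and 2, that of all genes between 1730 (without WT library 2) and 5170 (without WT library 1), and that of the listed genes between 11 and 29, against 26. With both libraries numbered 2 left out, the counts were 1, 1030 and 4. With limma, 1 of the 12 genes was called with a pseudocount of 1 FPKM and 1 with 0.1 FPKM and no filter, when the listed genes called were 15. The listed genes called were 17 in the 4 libraries without eye transcripts. The cause of these shifts was not tested. The call of ENSDARG00000009702 was lost in 6 of 20 alternatives, 1 of them the sum of both IDs named ascl1b. That sum had a log2 fold change of -0.19, which for ENSDARG00000101628 was a change of sign, and the her4 copies summed had 0.094 against -0.35 for her4.1 alone. For neurod4 the value ranged from -0.35 to 0.28 when 1 library was left out and was 0.029 in the 4 libraries without eye transcripts, with adjusted p of at least 0.625.

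The replicate numbers are shared by the genotypes, and the sources used here do not say whether the same number pairs samples. Deviations from the genotype means correlated at -0.13, 0.39 and -0.014 for numbers 1, 2 and 3. The value of 0.39 was the highest across the genotypes, while WT libraries 1 and 3 correlated best with another number. For WT library 1 this was bcas2-KO library 3 (0.28), the other library high in lens transcripts, so the correlations do not settle the pairing. With the replicate block, 3 of the 12 genes were called, the third being neurog1 (log2 fold change -0.41, adjusted p = 0.0447), and 4922 genes in all. Genes with few counts, such as her4.1 and ENSDARG00000009702, are limited by counting as well as by the spread of pools.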
